A study of Mus musculus with 16 samples.

Results

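The RFP- MHCIIlo population is the unlabelled, MHC class II-low fraction of medullary thymic epithelial cells (mTEC) of the mouse, sorted alongside 3 other mTEC populations. It is represented by 4 of the 16 RNA-seq libraries, chosen by their sort labels alone, and is compared here with the RFP- MHCIIhi, RFP+ MHCIIhi and RFP+ MHCIIlo populations, which hold 4 libraries each. Every population came from C57BL6.Aire-CreERT2.Ai14 mice of both sexes, 5 to 6 weeks old, that had been given 2 mg tamoxifen and were examined after a chase of 7 days. Ai14 is a reporter allele that turns on a red fluorescent protein (RFP) permanently once Cre has acted, and here Cre is under the control of Aire, so RFP marks cells in which Aire was active around the time of tamoxifen, and their descendants. An RFP- cell may not have switched Aire on by then, may have switched it off before, or may have escaped recombination, and the labels do not separate these. Each library is a pool of 12 thymi that the labels call a biological replicate, sorted as DAPI- CD45- EPCAM+ cells, with 80500 to 102800 cells for the RFP- MHCIIlo pools.

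mTEC line the inner compartment of the thymus and show developing T cells a sample of the body's proteins, including tissue-restricted antigens whose transcription depends on the nuclear regulator Aire. Precursors with little MHC class II mature into Aire-expressing MHCIIhi cells, and these later lose Aire and MHC class II and turn into post-Aire cells that can resemble skin, gut, tuft or other peripheral epithelia. The MHCIIlo gate therefore mixes precursors with post-Aire cells, and lineage labelling moves the recent post-Aire cells into the RFP+ MHCIIlo population. Keratin 5 marks basal and immature mTEC, while parathyroid hormone (Pth) and the matrix proteoglycan Prelp are products best known from the parathyroid gland and from connective tissue.

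Those 3 genes stood apart in RFP- MHCIIlo cells in every library. Values are library-scaled counts (CPM, counts divided by the effective library size in M) after scaling by the trimmed mean of M values, and differences are log2 values from the fit to all 16 libraries, given with their standard error (SE). Krt5 was at 1240, 1140, 1422 and 1567 CPM in RFP- MHCIIlo replicates 1 to 4, at 458 to 478 in RFP+ MHCIIlo, at 170 to 230 in RFP- MHCIIhi and at 252 to 312 in RFP+ MHCIIhi. Pth was at 660, 480, 381 and 187 CPM in RFP- MHCIIlo, against 13.5 to 15.5 in RFP- MHCIIhi, 6.53 to 26.45 in RFP+ MHCIIhi and 0.249 to 32.2 in RFP+ MHCIIlo. Prelp was at 113, 144, 124 and 169 CPM in RFP- MHCIIlo, 3.35 to 6.34 in RFP+ MHCIIlo, 12.4 to 19.3 in RFP- MHCIIhi and 6.26 to 7.17 in RFP+ MHCIIhi. For none of the 3 did a library of another population reach the lowest RFP- MHCIIlo library. Against the mean of the other 3 populations the log2 differences were 2.22 for Krt5 (SE 0.08, adjusted p = 5.1e-17), 5.17 for Pth (SE 0.42, adjusted p = 2.13e-10) and 4.13 for Prelp (SE 0.10, adjusted p = 2.04e-19). The Pth value rests in part on RFP+ MHCIIlo replicate 3, the library at 32.2 CPM, without which it was 6.56.

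Epithelial genes were at levels close to those of the other populations. Epcam, the adhesion molecule of the sort, differed by -0.02 (SE 0.06, adjusted p = 0.81) and the keratin gene Krt18 by -0.01, values whose sign changed with single libraries. With library totals as the scale they were -0.24 (adjusted p = 0.00537) and -0.23 (adjusted p = 0.0356), near the shift of -0.26 of all genes under that scale. The keratin gene Krt8 was lower by 0.30 on the log2 scale, and Cdh1, encoding E-cadherin, was higher by 0.42. These mean differences joined pairwise differences of both signs. Of the 4 genes, 2 were called higher and none lower than in RFP- MHCIIhi (median log2 0.34). Against RFP+ MHCIIlo none was higher and 3 were lower (median -0.37), and against RFP+ MHCIIhi 1 was higher and 1 lower. Epcam itself was 0.45 above RFP- MHCIIhi. Ptprc, which encodes the CD45 antigen that the sort excluded, was at 17.7 to 23.5 CPM in RFP- MHCIIlo and was lower than the mean of the other populations (log2 -0.78, SE 0.15), although its range met the 19.3 to 26.7 CPM of RFP+ MHCIIhi. The sort itself selected for EPCAM, and bulk levels of these 4 epithelial genes cannot show that all sorted cells were epithelial.

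The sequences before the start sites of the 3 marker genes are shown together with those of 3 other genes that were highest in this population and hold a recognised element. They are the 250 bases before the annotated start in RefSeq, GRCm38.p6, 5′ to 3′ on the strand of the gene. Capitals mark matches, on either strand, to 4 elements that were searched: the TATA box as TATAAA, the core of sites bound by TEAD factors as GGAATG, the AP-1 site as TGANTCA, and the CArG box of serum response factor. None of these matches overlapped another element. In Pth the only match lies at the far end, starting 249 bases before the start, and the windows of Prelp and Krt5 hold none. Syde1 has GGAATG starting 30 bases before the start on the strand of the gene and 37 bases before it on the other strand, Upk3b has it 241 bases before the start on the other strand, and Myl9, a contractile gene, has a CArG box starting 161 bases before the start.
Krt5 (chr15:101712906-101713155, minus strand): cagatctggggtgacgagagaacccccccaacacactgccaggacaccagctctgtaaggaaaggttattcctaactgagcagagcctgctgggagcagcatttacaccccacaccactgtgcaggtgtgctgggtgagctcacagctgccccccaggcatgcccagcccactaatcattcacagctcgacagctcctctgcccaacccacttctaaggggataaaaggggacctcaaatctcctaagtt
Pth (chr7:113388574-113388823, minus strand): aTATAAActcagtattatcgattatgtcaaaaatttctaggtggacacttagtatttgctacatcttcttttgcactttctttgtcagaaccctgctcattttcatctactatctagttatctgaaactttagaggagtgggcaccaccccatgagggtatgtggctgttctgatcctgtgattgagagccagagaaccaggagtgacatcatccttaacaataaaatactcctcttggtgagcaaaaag
Prelp (chr1:133921402-133921651, minus strand): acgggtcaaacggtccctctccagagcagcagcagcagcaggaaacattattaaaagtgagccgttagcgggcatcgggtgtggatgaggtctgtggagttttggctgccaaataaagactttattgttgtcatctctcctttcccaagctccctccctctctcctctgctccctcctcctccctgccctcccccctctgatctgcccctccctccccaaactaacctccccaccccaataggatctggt
Syde1 (chr10:78591965-78592214, minus strand): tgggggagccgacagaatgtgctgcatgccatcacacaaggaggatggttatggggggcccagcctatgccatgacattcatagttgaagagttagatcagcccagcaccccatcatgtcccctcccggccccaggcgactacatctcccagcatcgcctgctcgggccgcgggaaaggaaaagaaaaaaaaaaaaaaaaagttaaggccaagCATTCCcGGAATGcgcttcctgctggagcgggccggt
Upk3b (chr5:136038246-136038495, plus strand): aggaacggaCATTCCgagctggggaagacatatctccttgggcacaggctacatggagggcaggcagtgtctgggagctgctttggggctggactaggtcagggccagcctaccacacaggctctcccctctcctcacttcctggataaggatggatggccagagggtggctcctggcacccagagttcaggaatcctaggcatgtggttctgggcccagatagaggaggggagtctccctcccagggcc
Myl9 (chr2:156775214-156775463, plus strand): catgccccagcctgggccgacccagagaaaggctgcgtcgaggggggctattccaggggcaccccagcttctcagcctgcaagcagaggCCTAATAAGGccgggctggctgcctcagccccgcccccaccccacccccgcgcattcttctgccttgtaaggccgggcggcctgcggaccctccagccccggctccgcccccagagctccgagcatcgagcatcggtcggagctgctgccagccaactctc
Promoter windows of the genes that were highest in RFP- MHCIIlo held GGAATG more often than those of all tested genes. It was found in 18.2% of the 702 windows of 541 such genes, and in 11.4% of the 17644 windows of 14004 tested genes. The shares were 7.3% against 5.4% for TGANTCA, 2.1% against 1.2% for the CArG box and 8.8% against 8.4% for TATAAA. In the 1222 windows of lowest genes the shares were 12.4% for GGAATG, 10.4% for TGANTCA, 0.9% for the CArG box and 16.9% for TATAAA, so TGANTCA was more frequent there than among the highest genes. Over all 32851 windows of the reference they were 12.6% for GGAATG, 6.7%, 1.5% and 12.4% in the same order. These shares are descriptions that were not tested and not matched for base composition, and a match is not evidence of binding.

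The libraries held 7.93 to 19.46 M counts, 10.35 to 13.8 M in RFP- MHCIIlo, and the 2 mitochondrial ribosomal RNA genes took 39.16 to 45.89% of the RFP- MHCIIlo counts against 29.29 to 38.53% elsewhere. Scaling by library totals alone, which keeps that share in the denominator, moved the median log2 difference of all genes from -0.03 to -0.26. Within RFP- MHCIIlo, replicate 3 stood high for mesothelial and connective tissue genes, as detailed below, while pairs of its libraries correlated at 0.974 to 0.981. The RFP+ MHCIIlo libraries, sorted from 19400 to 20500 cells, were the least alike, at 0.95 to 0.967. Without RFP+ MHCIIlo replicates 1 and 4, an alternative added after seeing the data, 881 genes were highest and 1396 lowest in RFP- MHCIIlo, near the counts given next.

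Of 19617 genes tested, 5874 (29.9%) were called higher and 6765 (34.5%) lower in RFP- MHCIIlo, relative to the mean of the other 3 populations, at an adjusted p under 0.05. With library totals as the scale these counts were 3773 and 8985, so that the share of calls that were higher was 29.6% in place of 46.5%. Counts of list members called in the mean contrast, given below, are to be read beside the 29.9% and 34.5% of all tested genes. The lists were chosen with earlier results of these data known, so their counts are descriptions and not a test of enrichment. A difference from a mean of 3 populations can come from fewer than 3 of them. Among the genes called higher, 2352 were also called above each of the others, 2005 were called above both MHCIIhi populations but not above RFP+ MHCIIlo, and 587 were called below at least 1 population. For the genes called lower the corresponding counts were 2580 below each of the others, 2408 below both MHCIIhi populations but not below RFP+ MHCIIlo, and 486 above at least 1. The text below therefore rests on a stricter rule. A gene is called highest in RFP- MHCIIlo when its log2 difference from each of the other 3 exceeded 1 with an adjusted p under 0.05, and lowest when each was under -1 with the same p.

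By this rule 845 genes (4.31% of those tested) were highest and 1384 (7.06%) lowest. Protein-coding genes made up 706 of the highest and 1205 of the lowest. In 779 of the 845 no library of another population reached the 4 RFP- MHCIIlo libraries, compared with 2010 of all tested genes (10.2%), and 832 of the 1384 lay below every other library, compared with 1640 of all tested genes (8.36%). Both sets were picked for such differences in these same libraries, so these counts describe the rule and do not support it. The population nearest in level was RFP+ MHCIIlo for 441 of the highest genes, RFP- MHCIIhi for 325 and RFP+ MHCIIhi for 79. For the lowest genes RFP+ MHCIIlo was nearest in 1028, RFP- MHCIIhi in 254 and RFP+ MHCIIhi in 102. Just inside the threshold lay Vangl2, Id3 and Tmem150a, whose smallest log2 differences were 1.002, 1.003 and 1.003, and just outside it Wdr91 and Camk1, both at 0.999.

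The 14 genes named by the size of their smallest pairwise difference were Pth, Gas1, Fmod, Cavin2, Cav1, Thbd, Mgp, Aebp1, Upk3b, Efemp1, Scn7a, Antxr1, Myl9 and Syde1. Gas1, a membrane-anchored co-receptor of hedgehog signalling, was at 151, 148, 144 and 171 CPM in RFP- MHCIIlo and at 3.84 to 15.45 in the other 12 libraries (log2 4.61, SE 0.11). Antxr1, a collagen-binding receptor, was at 179 to 220 CPM against 11.6 to 22.9 elsewhere (log2 3.62, SE 0.08). Both were steady over the 4 pools, with coefficients of variation (SD over mean) of 8.03% for Gas1 and 8.58% for Antxr1. Scn7a, a sodium channel gene, ranged from 65.3 to 132 CPM against at most 12.3 elsewhere. Thbd, the anticoagulant receptor thrombomodulin, ranged from 72.0 to 151 CPM against at most 10.4 elsewhere (log2 4.18, SE 0.16), and its chromosomal neighbour Cd93 was also highest. Syde1, encoding a GTPase-activating protein, was lower in level, at 17.1 to 25.2 CPM against 0.758 to 3.64.

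**Figure D1:**
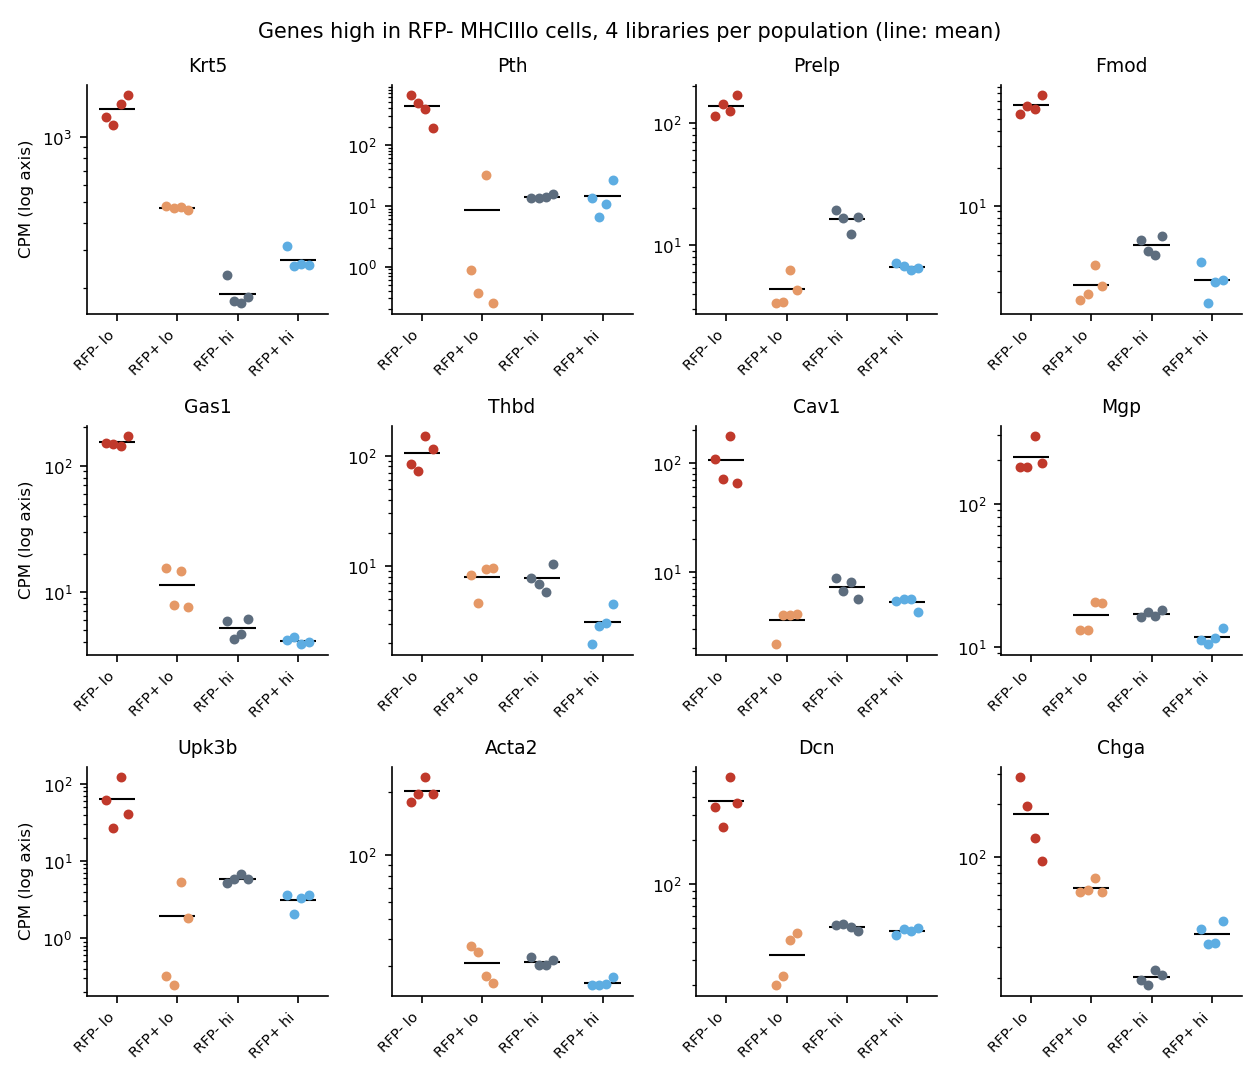
Level of 12 genes, in CPM on a log axis, in the 4 libraries of each population (points) with the mean (line). The red RFP- lo points lie above all other points in each panel, tightly for Gas1 and Acta2 and loosely for Pth, from 187 to 660 CPM, and Upk3b, from 26.6 to 123 CPM.

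Highest genes differed in how far the 4 pools spread. For the 395 highest genes whose mean reached 20 CPM or more the median coefficient of variation was 10.7%, against 8.4% in the 6283 other genes at that level, and 21 of them (5.3%) exceeded 40%, against 23 (0.4%) of the others. The most variable pattern ran through replicate 3. Its CPM was the highest of the 4 for 181 of the 395 genes (45.8%), against 1508 of the 6283 others (24%). Cavin2, a caveolar coat gene, was at 23.9, 13.7, 56.4 and 17.4 CPM in replicates 1 to 4, and Upk3b, a uroplakin gene of mesothelium and urothelium, at 61.3, 26.6, 123 and 40.3. Cav1, the main caveolar protein, and the matrix-associated Aebp1 were also highest in replicate 3 and next highest in replicate 1, with replicate 3 at 1.67 and 1.66 times the mean. Pth and Chga had another order, with 660 and 288 CPM in replicate 1 and 187 and 94.3 in replicate 4. Krt5, Prelp, Fmod, Gas1, Antxr1, Myl9 and Syde1 had coefficients of variation of 18% or less. Without replicate 3, 782 genes were highest, 760 of them among the 845, and the log2 difference of Cavin2 was 3.47 in place of 4.07.

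**Figure D2:**
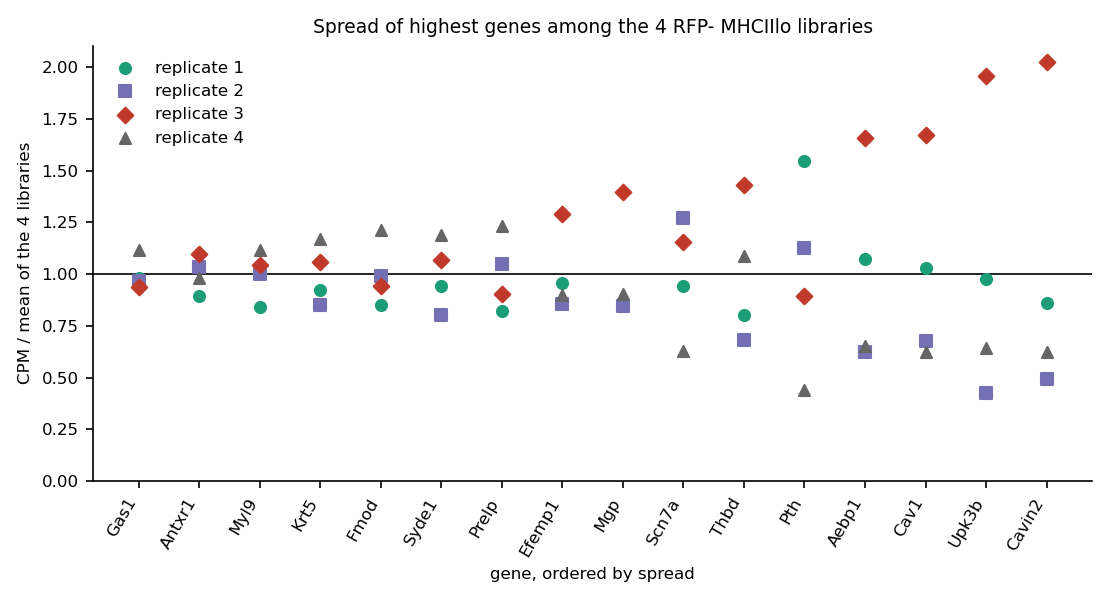
CPM of each RFP- lo library divided by the mean of the 4 (vertical axis) for 16 genes highest in this population, ordered by spread, with a symbol for each replicate. Gas1 lies within 0.937 and 1.12 of its mean, whereas Upk3b and Cavin2 reach 1.96 and 2.02 in replicate 3 and Pth reaches 1.54 in replicate 1.

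Several genes of basal and immature mTEC were highest in this population. Of 17 such genes tested, 10 were higher and 4 lower in the mean contrast, with a median log2 difference of 0.94 against -0.03 over all genes, and 6 were highest. Against RFP- MHCIIhi 15 were higher and 1 lower, against RFP+ MHCIIhi 9 and 5, and against RFP+ MHCIIlo 9 and 6 (median log2 0.37). The 6 highest were Pdpn (podoplanin), Krt5, Krt14, Trp63 (the p63 regulator of stratified epithelium), Itgb4 (the hemidesmosomal integrin) and Dst (its cytoskeletal linker). Trp63 was at 348 to 416 CPM against 101 to 134 in the other 12 libraries (log2 1.73, SE 0.06), and Krt14 at 354 to 500 against 86.9 to 129 (log2 2.05, SE 0.08). Pdpn was at 60.1 to 71.0 CPM against 5.89 to 13.7 (log2 2.91, SE 0.09). Ly6a, the stem cell antigen Sca-1, was called higher but closer to RFP+ MHCIIlo, by 0.37 on the log2 scale. The claudin genes Cldn3 and Cldn4 and the keratinocyte gene Dapl1 were lower, Dapl1 with 26.5 to 31.6 CPM against 173 to 233 in RFP+ MHCIIlo. Krt15 was not called. Ccl21a, a chemokine gene known from immature mTEC that has near-identical copies, had 1 read over all libraries and was not tested.

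Regulators of thymus and pharyngeal pouch development were higher as a group. Of 15 tested, 12 were called higher, 1 lower, and 6 highest, with a median log2 difference of 1.16. Fgfr2, the receptor through which mesenchymal fibroblast growth factors act on thymic epithelium, was at 215 to 244 CPM against 16.6 to 53.6 (log2 2.96, SE 0.09). Hoxa3, a pouch patterning gene, was at 9.46 to 16.3 CPM against 0.329 to 3.53 (log2 3.03, SE 0.18), and Hoxa2 beside it on chromosome 6 was highest too. Isl1, Meis1, Trp63 and Bmp4 completed the 6. Pax1 was level with RFP- MHCIIhi (log2 -0.05) and above both RFP+ populations, by 1.64 over MHCIIhi and 1.91 over MHCIIlo. Foxn1, the master regulator of thymic epithelial fate, went the other way. It was at 98.5, 107, 94.1 and 116 CPM in RFP- MHCIIlo, 266 to 286 in RFP- MHCIIhi, 188 to 209 in RFP+ MHCIIhi and 60.1 to 77.6 in RFP+ MHCIIlo, so the population stood between the MHCIIhi and the RFP+ MHCIIlo cells.

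Most extracellular matrix genes of the fibrillar list were higher in RFP- MHCIIlo. Among 24 fibrillar and microfibrillar matrix genes tested, 22 were called higher, none lower, and 14 highest (median log2 1.96). Without RFP- MHCIIlo replicate 3 these counts were 20, none and 13 (median 1.90). Col6a1 and Col6a2, neighbouring genes for chains of collagen VI, were at 289 to 310 and 307 to 331 CPM, against at most 51.8 and 52.5 in other libraries, with log2 differences of 3.64 (SE 0.08) and 3.89 (SE 0.08). Lox, which cross-links collagen and elastin, was at 47.0 to 65.8 CPM against 3.56 to 11.7. Fibrillar collagens spread more among the pools. Col1a1 was at 59.5, 29.7, 101 and 41.7 CPM, overlapping the 39.8 to 49.4 of RFP- MHCIIhi, from which it did not pass the test (log2 0.39, SE 0.30). Tnc, encoding tenascin C, was at 782 to 894 CPM in RFP- MHCIIlo, within the 606 to 1253 of the other libraries, and was not called, and Fn1 (fibronectin) was below both MHCIIhi populations although called higher in the mean contrast.

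The small leucine-rich proteoglycans, which bind collagen fibrils, split by member. Of 16 tested, 8 were higher, 3 lower, 5 highest and 1 lowest (median log2 0.64). Fmod (fibromodulin) was at 54.5, 63.6, 60.3 and 77.8 CPM in RFP- MHCIIlo and 1.63 to 5.74 elsewhere (log2 4.40, SE 0.12). It lies on chromosome 1 next to Prelp in the list of tested protein-coding genes, and both were highest. Dcn (decorin) was at 342, 249, 550 and 362 CPM against 19.9 to 52.7 elsewhere (log2 3.14, SE 0.14). Ogn and Podn were the other highest members. Kera (keratocan) was lowest, with 0 to 0.106 CPM against 2.84 to 3.85 in RFP- MHCIIhi, and Aspn (asporin) was called lower but level with RFP+ MHCIIlo.

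Mgp, the matrix Gla protein that keeps soft tissue from calcifying, and Efemp1, a fibulin, add to this picture. Mgp was at 181, 180, 296 and 192 CPM in RFP- MHCIIlo and 10.4 to 20.7 elsewhere (log2 3.83, SE 0.11). Efemp1 was at 23.8 to 35.8 CPM against 1.72 to 3.43 (log2 3.58, SE 0.13).

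Most basement membrane genes were higher too. Of 23 tested, 18 were higher, 1 lower and 11 highest (median log2 1.43). Col4a1 was at 272, 304, 331 and 315 CPM in RFP- MHCIIlo and 57.2 to 94.0 elsewhere (log2 1.90, SE 0.07), and Col4a2, transcribed in the opposite direction beside it, differed by 1.86. Lama3 and Lamb3, chains of the epithelial laminin that anchors basal cells through integrin alpha 6 beta 4, differed by 2.04 and 1.92, and Lamb1 by 2.42 (SE 0.06). Lama1, the embryonic laminin chain, was the lower member, at 1.27 to 2.73 CPM. With library totals as the scale, 8 genes of this list were highest.

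Most caveolar and contractile genes tested were higher in the mean contrast. Of 9 caveolar genes, 6 were higher, 2 lower and 4 highest: Cav1, Cavin2, Cavin3 and Ehd2. Cav1 was at 110, 72.0, 178 and 66.3 CPM in RFP- MHCIIlo and 2.16 to 8.86 elsewhere (log2 4.36, SE 0.17). Of 17 contractile and cytoskeletal genes of the kind driven by serum response factor, 14 were higher, 1 lower and 9 highest (median log2 1.40). Acta2, smooth muscle actin, was at 179, 195, 235 and 195 CPM against 24.2 to 37.2 elsewhere (log2 2.79, SE 0.08). Myl9, a myosin light chain, was at 57.9 to 76.6 CPM against 3.02 to 10.3 (log2 3.80, SE 0.11), and Tagln at 77.9 to 101 against 4.02 to 16.7. The late smooth muscle gene Cnn1 was the lower member, at 0.172 to 0.764 CPM against 10.2 to 15.1 in the MHCIIhi populations.

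Secreted growth factor systems held members called in both directions, beside 29.9% of all tested genes higher and 34.5% lower. Counts near those shares are not a result about a family. In the insulin-like growth factor system of 13 tested genes, 8 were higher and 5 lower, and the 5 highest were all binding proteins: Igfbp2, Igfbp3, Igfbp4, Igfbp5 and Igfbp7. Igfbp5 was at 1550 to 2016 CPM against 698 to 898 in RFP+ MHCIIlo and 98.9 to 252 in the MHCIIhi libraries (log2 2.69, SE 0.08). The ligand gene Igf1 was lower, at 29.1 to 42.7 CPM against 362 to 394 in RFP+ MHCIIhi, and overlapped RFP+ MHCIIlo. Igfbp6 was at 55.5, 26.3, 95.1 and 27.3 CPM, and its difference from RFP+ MHCIIhi (log2 0.86) was not called without replicate 3 (0.36), without RFP+ MHCIIhi replicate 2 (0.76), with library totals as the scale (0.62), or by DESeq2 (0.82, adjusted p = 0.17). By DESeq2 its difference from RFP- MHCIIhi was not called either (1.12, adjusted p = 0.056).

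In the TGF-beta and BMP list of 26 genes, 14 were higher, 9 lower, 6 highest and 2 lowest. The highest were mostly extracellular modulators: Fst (follistatin) and Fstl1, Chrd (chordin) and the latent TGF-beta binding proteins Ltbp3 and Ltbp4, with the ligand Bmp4. Fst was at 37.8 to 58.9 CPM against 1.33 to 6.03 elsewhere (log2 4.16, SE 0.11). Bmp4, which supports early thymic epithelium, was at 5.32, 4.50, 5.80 and 7.48 CPM against 0.390 to 2.65. Lowest were the ligand Bmp3 and the BMP antagonist Grem1, the latter at 4.78 to 5.42 CPM against 14.9 to 73.5. With library totals as the scale 12 were higher and 11 lower.

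Of 26 Wnt pathway genes, 7 were higher and 13 lower, with 3 highest and 3 lowest. Wnt4, a ligand known to regulate Foxn1 in thymic epithelium, was at 90.6, 91.9, 76.5 and 94.5 CPM against 31.0 to 48.6 elsewhere (log2 1.24, SE 0.07). Wnt5a and Dkk3 were the other highest members. Dkk1, a Wnt inhibitor, was lowest with 0.0848 to 0.853 CPM against 0.663 to 16.4, and Wnt3 and Wnt7a were the other lowest members.

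Interferon-responsive genes were higher too. Of 13 tested, 11 were higher, none lower and 4 highest: Ifi44, Ifit3, Isg15 and Oas1a. Isg15, the ubiquitin-like modifier, was at 81.6, 72.5, 76.8 and 56.5 CPM against 12.1 to 37.8 elsewhere (log2 1.65, SE 0.08). Immediate early genes, which tissue digestion can induce, were higher in both MHCIIlo populations. Of 18 tested, 15 were higher in the mean contrast (median log2 0.58), but against RFP+ MHCIIlo 6 were higher and 6 lower, and none was highest. Fos was at 268 to 359 CPM in RFP- MHCIIlo and 245 to 314 in RFP+ MHCIIlo, against 75.8 to 150 in the MHCIIhi libraries. All 7 tested mitochondrially encoded protein genes were higher (median log2 0.60), mt-Co1 with 4558 to 8469 CPM against 2934 to 3968 elsewhere except for 6637 in RFP+ MHCIIlo replicate 4. These levels moved with the population, and the part of RNA quality or digestion in the other results was not tested. With library totals as the scale, 9 interferon-responsive genes were higher, 1 lower and 2 highest. On that scale 11 immediate early and 5 mitochondrially encoded genes were higher.

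**Figure D3:**
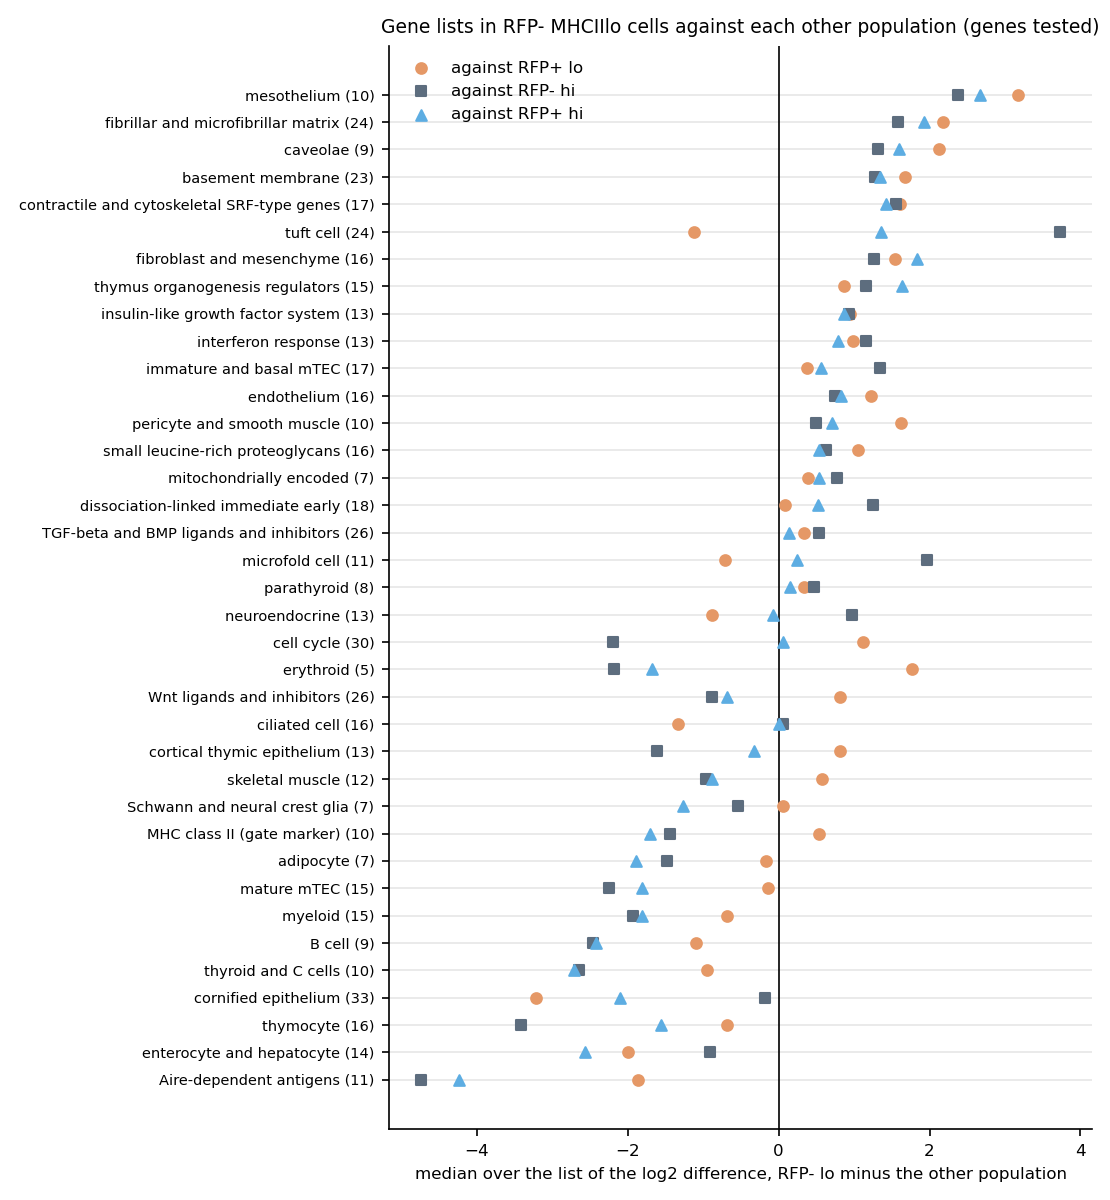
Median over each gene list of the log2 difference of RFP- lo from each other population (horizontal axis), with the number of genes tested in parentheses. Mesothelium, matrix, caveolar and contractile lists lie to the right of 0 against all 3 populations, the tuft cell list lies at 3.73 against RFP- hi and -1.12 against RFP+ lo, and the Aire-dependent antigens lie to the left against all 3.

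Markers of cells other than mTEC were examined because an EPCAM+ CD45- gate can hold other epithelia and attached stroma. In bulk RNA, more cells of a type and more RNA per cell cannot be told apart. The parathyroid shares its pouch origin with the thymus, and ectopic parathyroid tissue in the thymus is known in mice. Of 8 parathyroid genes tested, 4 were higher, 1 lower and 2 highest, Pth and Chga. Chga, chromogranin A of secretory granules, was at 288, 195, 128 and 94.3 CPM in RFP- MHCIIlo and 62.1 to 75.1 in RFP+ MHCIIlo (log2 1.42, SE 0.21), and the 4 pools ranked the same for Pth and Chga. The defining regulator Gcm2 was low, at 0.344 to 2.87 CPM, and overlapped RFP- MHCIIhi. Casr, the calcium-sensing receptor, was not called (log2 0.04), and Gata3 was lower. Summed over the list, RFP- MHCIIlo had 352 to 1040 CPM against 96.9 to 212 in the other libraries. Pth and Chga carried this sum: the other 6 genes together were at 70.6 to 93.3 CPM in RFP- MHCIIlo, within the 65.2 to 107 of the other libraries.

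Thyroid genes were not raised with them. Of 10 tested, Foxe1 was higher, 7 were lower and 4 lowest, and the list summed to 18.3 to 39.6 CPM against 208 to 215 in RFP- MHCIIhi. Tg (thyroglobulin) was at 0.850, 0.424, 23.2 and 1.12 CPM, so that 1 pool, replicate 3, was far above the others. The log2 difference of Tg was 0.70 (SE 0.57, not called) with that library and -2.32 (adjusted p = 2.09e-05) without it. Calca, the calcitonin gene of C cells, was lowest, at 3.72 to 6.54 CPM against 82.8 to 167 in the MHCIIhi libraries.

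Mesothelial genes were raised throughout their list, and fibroblast genes in most of theirs. All 10 mesothelial genes tested were higher, 7 highest (median log2 2.59), and without replicate 3 all 10 were still called and 6 were highest (median 2.27). Upk3b differed by 4.24 (SE 0.30), and Wt1, the mesothelial transcription factor, was at 4.73 to 16.3 CPM against 0.324 to 1.66. Msln (mesothelin) was level with RFP+ MHCIIlo (log2 -0.04), and the whole list summed to 469 to 734 CPM against 328 to 413 there. Without Msln the sum was 226, 131, 373 and 148 CPM in RFP- MHCIIlo and 13.9 to 57.2 in the other libraries. Of 16 fibroblast and mesenchyme genes, 12 were higher, 3 lower and 7 highest. Their sum was 719, 510, 1110 and 654 CPM in RFP- MHCIIlo against 94.2 to 367 elsewhere. Dcn made up much of it: without Dcn the sums were 377, 261, 565 and 292 CPM, overlapping the 248 to 319 of RFP- MHCIIhi. Dcn, Col3a1 and Col1a2 of this list belong to the matrix lists too. Prrx1 and Twist1, mesenchymal regulators, were at 8.57 to 12.7 and 0.679 to 2.47 CPM, both highest, while the receptor Pdgfrb was lower (log2 -1.33) and Pdgfra called higher at 2.92 to 7.33 CPM. The part of such cells in the matrix, caveolar and contractile results was not tested. These lists included genes that were steady over the pools (Col6a1, Col6a2, Ehd2, Tagln) and genes that followed replicate 3 (Cav1, Cavin2, Col1a1, Dcn).

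**Figure D4:**
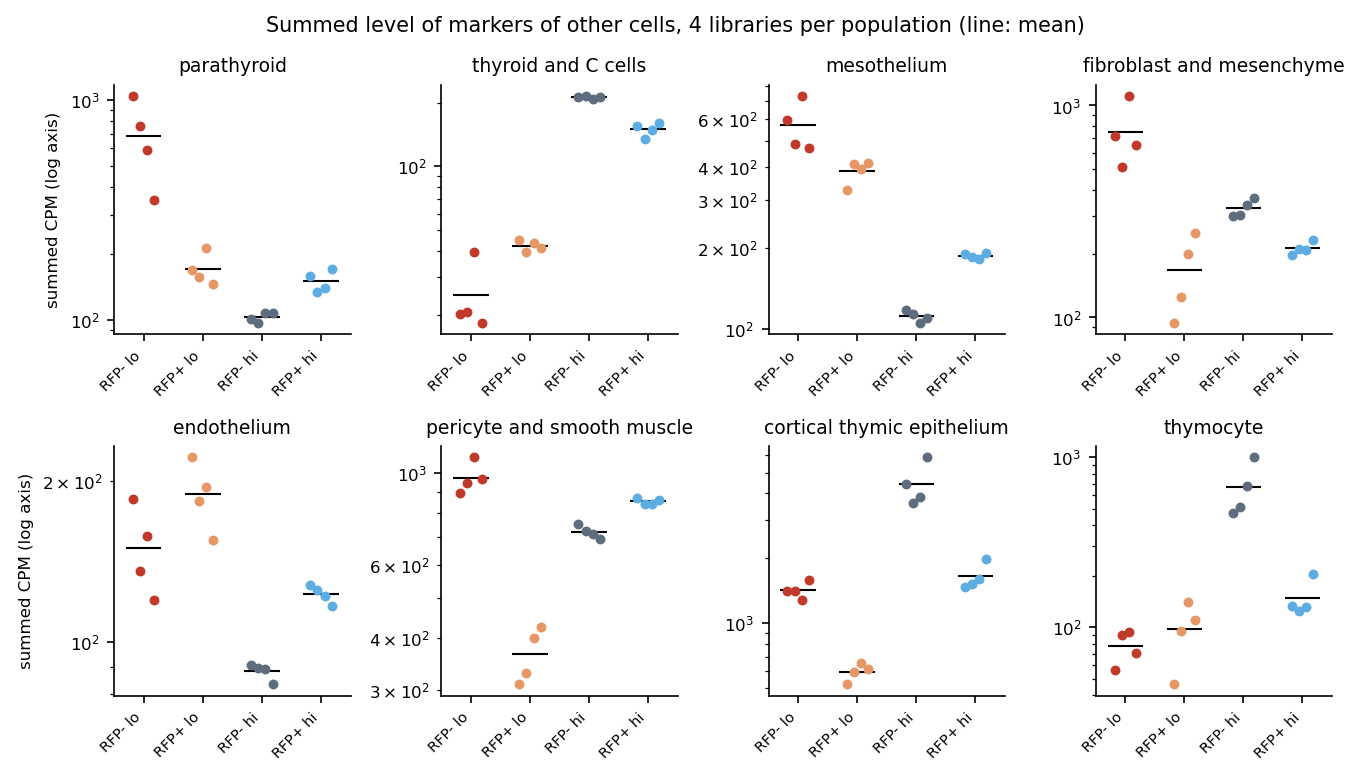
Summed CPM (log axis) of marker lists of other cells in the 4 libraries of each population (points) with the mean (line). Parathyroid, mesothelium and fibroblast sums are above all other libraries in RFP- lo, at 352 to 1040, 469 to 734 and 510 to 1110 CPM, and thyroid sums there are 18.3 to 39.6 CPM. The parathyroid sum is carried by Pth and Chga, and without Dcn the fibroblast sum, at 261 to 565 CPM, overlaps the 248 to 319 of RFP- hi.

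Vascular genes gave a mixed result. Of 16 endothelial genes, 11 were higher, 4 lower and 3 highest. Their sum was 120 to 185 CPM in RFP- MHCIIlo, overlapping the 155 to 221 of RFP+ MHCIIlo and the 117 to 128 of RFP+ MHCIIhi. It was 83.4 to 90.6 in RFP- MHCIIhi. Kdr and Cdh5, receptor and cadherin of endothelium, were at 8.4 to 23.5 and 8.91 to 17.9 CPM against at most 3.15 and 7.75 elsewhere. Pecam1, at 10.9 to 12.7 CPM, did not pass the test against RFP- MHCIIhi (log2 0.11) or RFP+ MHCIIhi (0.37). Of 10 pericyte and smooth muscle genes, 7 were higher, 1 lower and 2 highest, Acta2 and Mcam. Rgs5, a pericyte gene, was at 462 to 556 CPM, below the 664 to 684 of RFP+ MHCIIhi, and its mean difference of 0.34 was not called with library totals as the scale (0.11). Of 7 Schwann and glial genes 1 was higher and 5 lower. Pmp22, the higher member, is also expressed outside nerve, at 52.7 to 79.1 CPM, while Sox10 stayed under 1 CPM in every RFP- MHCIIlo pool. Of 7 adipocyte genes 1 was higher and 5 lower, Adipoq with 0.344 to 1.45 CPM against 5.19 to 11.1 in the MHCIIhi libraries.

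Genes of lymphoid and myeloid cells were mostly lower in the mean contrast. Of 16 thymocyte genes, 14 were lower, 1 higher and 4 lowest, and their sum was 56.0 to 93.6 CPM against 472 to 1000 in RFP- MHCIIhi, 125 to 206 in RFP+ MHCIIhi and 46.2 to 141 in RFP+ MHCIIlo, which it overlapped. Against RFP+ MHCIIlo alone 5 of the 16 were lower and 1 higher, beside 28.9% of all genes lower. Cd3e, part of the T cell receptor complex, was at 1.38, 3.73, 4.52 and 3.18 CPM against 25.7 to 58.6 in RFP- MHCIIhi, and its difference from RFP+ MHCIIlo (log2 -1.16) was not called without RFP- MHCIIlo replicate 1 (-0.93), without RFP+ MHCIIlo replicate 3 (-0.80), or by limma-voom (-0.98). Of 9 B cell genes 8 were lower and none higher, and Cd79a was not called. Of 15 myeloid genes, 11 were lower and Mpeg1 alone was higher. Lyz2, the macrophage lysozyme, was among the lower ones, with 63.6 to 102 CPM against 108 to 163 in RFP+ MHCIIlo and 324 to 536 in the MHCIIhi libraries. Of 5 erythroid genes 1 was lower in the mean contrast, Slc4a1, and against RFP+ MHCIIlo 3 were higher and 1 lower. Against RFP- MHCIIhi 4 of them were lower (median log2 -2.18), as were 4 against RFP+ MHCIIhi (median -1.68). Hbb-bs was not called in the mean contrast.

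Cortical thymic epithelium was followed because the sort as described names no cortical marker. In the mean contrast 4 of 13 of its genes were higher and 8 lower, beside 29.9% and 34.5% of all tested genes. By the stricter rule 1 was highest and 1 lowest. The direction depended on the population compared. Against RFP- MHCIIhi 2 were higher and 11 lower, and against RFP+ MHCIIhi 4 and 6. Against RFP+ MHCIIlo 9 were higher and 2 lower (median log2 0.82), beside 22.7% and 28.9% of all genes. The list summed to 1280 to 1590 CPM, against 521 to 657 in RFP+ MHCIIlo and 1480 to 5880 in the MHCIIhi libraries. Ackr4, a scavenging chemokine receptor, was highest at 61.8 to 123 CPM against 8.07 to 36.8. Psmb11, the cortex-specific proteasome subunit, was at 17.0, 15.5, 14.9 and 26.3 CPM against 147 to 272 in RFP- MHCIIhi, did not differ beyond its spread from RFP+ MHCIIhi (log2 -0.28, SE 0.28) and exceeded RFP+ MHCIIlo (1.41). Dll4, the Notch ligand, was lowest, and the chemokine gene Ccl25 was at 55.8 to 69.9 CPM against 447 to 1194 in the MHCIIhi libraries.

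The 10 lowest genes named by size were Ptgds, Ctrb1, Apoc2, Hal, Nos2, Psors1c2, S100a9, Alox12b, Bpifc and Klk14. Their choice required that no RFP- MHCIIlo library reach a library of another population. Ptgds, a prostaglandin D synthase, was at 1.59, 2.12, 2.05 and 1.89 CPM in RFP- MHCIIlo, 19.9 to 30.9 in RFP+ MHCIIlo, 46.9 to 55.6 in RFP- MHCIIhi and 89.5 to 109 in RFP+ MHCIIhi (log2 -4.71, SE 0.14). Ctrb1, a pancreatic protease precursor, was at 2.66 to 5.46 CPM against 26.7 to 173 elsewhere (log2 -4.36, SE 0.20), and Apoc2, an apolipoprotein, at 2.76 to 5.80 against 31.1 to 199. Nos2, the inducible nitric oxide synthase, was at 4.15, 8.65, 10.1 and 12.4 CPM, 33.5 to 70.5 in RFP+ MHCIIlo, 73.7 to 90.9 in RFP- MHCIIhi and 322 to 339 in RFP+ MHCIIhi. For Ptgds, Ctrb1, Apoc2 and Nos2 the highest level was in RFP+ MHCIIhi. Hal, histidine ammonia-lyase of skin and liver, was at 5.94 to 6.91 CPM against 48.8 to 105 (log2 -3.65, SE 0.10). Alox12b and Klk14, enzymes of the skin barrier, were at 2.21 to 3.83 and 2.75 to 3.08 CPM, and about level among the other 3 populations, at 24.3 to 35.2 and 21.7 to 37.4. S100a9, a calgranulin, was at 4.16 to 6.71 CPM against 38.3 to 150.

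**Figure D5:**
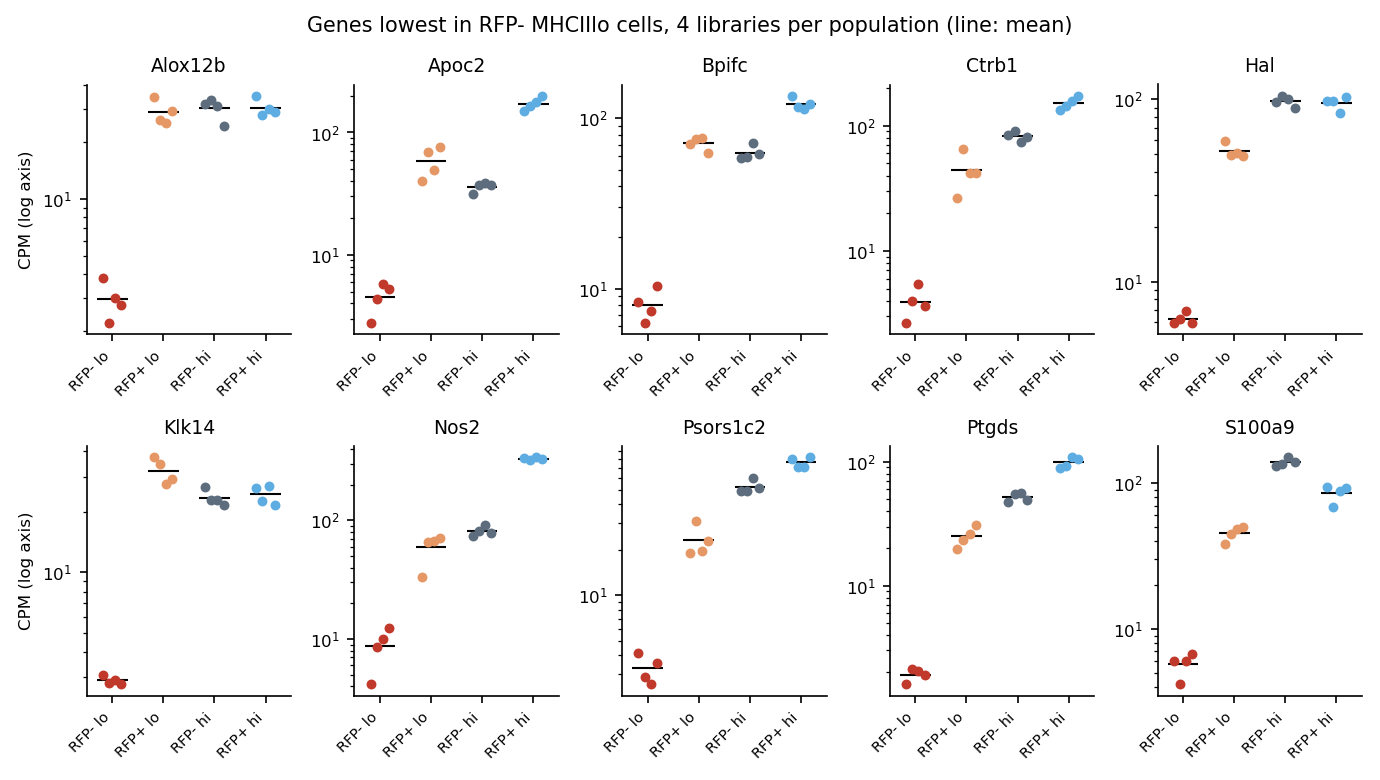
Level of the 10 named lowest genes, in CPM on a log axis, in the 4 libraries of each population (points) with the mean (line). The red RFP- lo points lie below all others in each panel, for example at 1.59 to 2.12 CPM for Ptgds, where no other library is under 19.9.

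Aire-dependent antigens, transcripts lost from mTEC that lack Aire, were lower without exception. All 11 tested were lower, 8 lowest, with a median log2 difference of -3.32, and their sum was 178 to 236 CPM against 384 to 758 in RFP+ MHCIIlo and 1110 to 1590 in the MHCIIhi libraries. Ins2, an insulin gene, was at 0.213, 0, 0.0853 and 0.516 CPM, against 1.41 to 2.39 in RFP+ MHCIIlo and 4.73 to 14.3 in the MHCIIhi libraries. Its log2 difference was -4.63, and -5.70 without RFP- MHCIIlo replicate 4. Mucl2 was at 0.255 to 0.688 CPM against 8.97 to 36.6. Aire itself was at 16.3, 23.8, 42.6 and 69.0 CPM in RFP- MHCIIlo and 13.9, 68.0, 54.4 and 66.9 in RFP+ MHCIIlo, overlapping and not called (log2 -0.42, SE 0.34), while the MHCIIhi libraries held 543 to 1041. The Aire difference between the MHCIIlo populations was called without RFP- MHCIIlo replicate 4 (-0.87) and without RFP+ MHCIIlo replicate 1 (-0.73). The antigens differed between the MHCIIlo populations (9 of 11 lower, 1 higher in RFP- MHCIIlo, median -1.87) where Aire did not pass the test.

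Other maturity genes were lower than in the MHCIIhi populations. In the mean contrast, of 15 mature mTEC genes, 14 were lower and 4 lowest: the costimulatory genes Cd80 and Cd86 and the chemokine genes Ccl17 and Ccl22. Against both MHCIIhi populations all 15 were lower, whereas against RFP+ MHCIIlo 6 were lower and 3 higher (median log2 -0.14), and the summed level of 663 to 1130 CPM overlapped the 671 to 1060 of RFP+ MHCIIlo. Ccl22 was at 10.9 to 31.2 CPM against 57.9 to 84.0 in RFP+ MHCIIlo and 187 to 1097 in the MHCIIhi libraries. Fezf2, a second regulator of tissue-restricted antigens, was at 127 to 174 CPM against 480 to 603 in the MHCIIhi libraries and was 0.40 lower than RFP+ MHCIIlo on the log2 scale. MHC class II genes, products of the gate itself, were lower than in both MHCIIhi populations in 10 of 10, and higher than in RFP+ MHCIIlo in 8 of 10. H2-Aa was at 1010, 1199, 1374 and 1695 CPM, against 700 to 1118 in RFP+ MHCIIlo and 4569 to 5772 in the MHCIIhi libraries. Its difference from RFP+ MHCIIlo (log2 0.46) was not called with library totals as the scale (0.31, adjusted p = 0.073).

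Cornified epithelium genes were lower in 33 of 33 and lowest in 11 (median log2 -1.82), but the 3 comparisons differed. All 33 were lower than in RFP+ MHCIIlo and 32 lower than in RFP+ MHCIIhi, whereas against RFP- MHCIIhi 11 were higher and 13 lower. Krt10, a keratin of differentiating keratinocytes, was at 37.2, 22.1, 25.9 and 20.3 CPM in RFP- MHCIIlo, 210 to 414 in RFP+ MHCIIlo, 101 to 153 in RFP+ MHCIIhi and 8.60 to 12.0 in RFP- MHCIIhi. The lowest members included the kallikreins Klk5, Klk7, Klk8 and Klk13, which can share reads, and Krt77. Enterocyte and hepatocyte genes were lower in 13 of 14 and lowest in 6, among them Alb, Apoa1, Apob and Ttr. Ttr, the transthyretin carrier, was at 2.80 to 4.99 CPM against 14.7 to 20.0 in RFP- MHCIIhi and 61.6 to 136 in the RFP+ libraries.

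Tuft and microfold genes were raised in the mean contrast yet peaked in the other MHCIIlo population. Of 24 tuft genes, 21 were called higher, but all 24 were lower than in RFP+ MHCIIlo. Dclk1, a tuft cell kinase, was at 599, 503, 391 and 376 CPM in RFP- MHCIIlo, 615 to 1086 in RFP+ MHCIIlo, 86.8 to 113 in RFP+ MHCIIhi and 32.2 to 39.3 in RFP- MHCIIhi. Of 11 microfold genes, 8 were higher and 2 lower, 10 being lower than in RFP+ MHCIIlo. Gp2, the microfold receptor for bacteria, was at 596 to 631 CPM, below the 959 to 1057 of RFP+ MHCIIlo and above the 266 to 321 of RFP+ MHCIIhi. With library totals as the scale 4 microfold genes were higher. Of 16 ciliated cell genes 2 were higher and 10 lower, and Foxj1, the ciliogenesis regulator, was at 27.5 to 36.9 CPM against 102 to 114 in RFP+ MHCIIlo. Of 13 neuroendocrine genes 5 were higher and 5 lower, with Chga highest and Insm1 and Calca lowest. Of 12 skeletal muscle genes 3 were higher and 5 lower, and Myog, a muscle regulator, was at 7.76 to 14.2 CPM, overlapping the 8.10 to 14.6 of RFP+ MHCIIlo.

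Proliferation genes were lower than in RFP- MHCIIhi and mostly higher than in RFP+ MHCIIlo. Of 30 cell cycle genes, all 30 were lower than in RFP- MHCIIhi (median log2 -2.20), 23 were higher than in RFP+ MHCIIlo (median 1.12), and against RFP+ MHCIIhi 8 were higher and 3 lower. Mki67, the proliferation antigen, was at 72.4, 88.9, 158 and 160 CPM in RFP- MHCIIlo, 459 to 498 in RFP- MHCIIhi, 86.8 to 89.4 in RFP+ MHCIIhi and 10.5 to 43.6 in RFP+ MHCIIlo. In the mean contrast 4 of the 30 were higher and 11 lower, beside 29.9% and 34.5% of all tested genes. With library totals as the scale none of the 30 was higher and 17 were lower.

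Each pairwise comparison had its own background. Against RFP- MHCIIhi, 33.5% of all tested genes were higher and 35.6% lower. The shares were 30.6% and 35.3% against RFP+ MHCIIhi, and 22.7% and 28.9% against RFP+ MHCIIlo. The 3 comparisons share the RFP- MHCIIlo libraries, so they are not independent of each other.

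More of the highest genes than of other genes had a highest gene as chromosomal neighbour, at any distance, although most had none. Among 16781 tested protein-coding genes ordered by position, 124 of the 706 highest (17.6%) had a highest gene as a direct neighbour, against 1246 (7.75%) of the others. The pairs included Prelp and Fmod, Col6a1 and Col6a2, Col4a1 and Col4a2, Igfbp2 and Igfbp5 with log2 differences of at least 1.47 and 1.21, and Lifr and Osmr, receptors of the interleukin 6 family. Complement genes C1rl, C1ra and C1s1 formed a run of 3 on chromosome 6. Some neighbours are duplicates or overlap, such as Slfn5, Slfn8 and Slfn9, and can share reads, and the difference between the shares was not tested.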

How the data were processed

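Polyadenylated RNA of sorted mTEC was amplified and sequenced from 16 libraries, 4 for each population. The authors deposited raw counts per gene for each library, in whole numbers, and the submitters' processing notes name STAR, DESeq2 and GRCm38 without versions. No source used here gives the counting tool, annotation or use of strand, and genes that overlap or have near-identical copies are uncertain. Of 43432 genes, 42462 were matched to a symbol, and the 970 without one took 0.11% of reads. Counts were tested with the quasi-likelihood F test of edgeR 4.0.16 in R 4.3.3 after filterByExpr (minimum count 10, minimum total 15) and scaling by the trimmed mean of M values, with all 16 libraries in 1 model of population, and p-values were adjusted by Benjamini-Hochberg over all tested genes. RFP- MHCIIlo was set against the mean of the other 3 populations and against each. SEs are the absolute fitted log2 difference divided by the square root of its F statistic. A prior count of 2 was used for log2 CPM values only, not for the fit. Pools of different animals count as replicates, with n = 4 per population throughout.

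The genes named are a leading gene of each list, the 3 markers, the 14 highest genes with the largest smallest-of-3 difference at a mean of at least 20 CPM, and the 10 lowest genes chosen alike, without predicted genes. Further list members are examples, some of them chosen after their values were seen. The members and lists were chosen with earlier results of these data known. On simulated counts for the mean contrast with 18961 genes, 94% of 50 genes changed by 1.5-fold were recovered. The changed genes were drawn from the better expressed part of the tested genes. All other genes had equal means in the populations, unlike these data, so the share does not apply to genes at low level. The alternatives were DESeq2 1.42.0, limma-voom (limma 3.58.1), other scalings, other filters, other fold thresholds, a replicate block and leaving out each library. Marker sums without their leading genes were added after seeing the data. No pair of libraries within a population agreed within sampling noise (chi-square per degree of freedom 2.99 to 32.66 over 24 pairs).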

Additional observations from a re-analysis of the deposited data

Results flagged for a closer look

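Among 252 groups of 4 libraries (63 named genes in 4 populations), 12 held a library whose gap to the nearest of the others was too large a share of the whole range by Dixon's 95% criterion, which chance alone gives for about 1 group in 20. Only 1 lay in RFP- MHCIIlo itself: Mgp at 296 CPM in replicate 3, against 180 to 192 in the other 3 pools. In RFP+ MHCIIlo, replicate 1 was low for Aire (13.9 CPM against 54.4 to 68.0), Cav1 (2.16 against 4.02 to 4.15) and Nos2 (33.5 against 65.5 to 70.5). Replicate 3 of that population was high for Chga (75.1 CPM against 62.1 to 63.9) and Ptprc (45.3 against 32.3 to 34.0), and replicate 4 for mt-Co1 (6640 against 3150 to 3520). In RFP+ MHCIIhi, replicate 1 was high for Krt5 (311 CPM against 252 to 258), replicate 2 low for Cavin2 (0.817 against 1.54 to 1.59) and replicate 4 low for Cav1 (4.28 against 5.46 to 5.65). In RFP- MHCIIhi, replicate 4 was high for Pth (15.5 CPM against 13.5 to 13.8) and low for Scn7a (7.81 against 10.9 to 11.2).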

How the results depend on the processing

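With library totals as the only scale, 3773 genes were called higher than the mean of the other populations and 8985 lower, and 604 genes were highest, all 604 of them among the 845. Requiring any log2 difference above 0 in place of 1 gave 2352 highest and 2580 lowest genes, and requiring 2 gave 183 and 536. Leaving out each library in turn gave 5396 to 6126 genes higher, 6384 to 7008 lower, 782 to 888 highest and 1251 to 1584 lowest. DESeq2 gave 821 highest and 1459 lowest genes, and limma-voom 862 and 1120. The labels do not say whether a replicate number marks a shared pool. Same-numbered libraries of different populations correlated at -0.019 to 0.129 in their deviations, 4 of 24 pairs above 0.1. Their median was 0.057, against -0.017 for libraries of different numbers. Of 16 libraries, 14 correlated best with their own number, so pairing is possible and the main fit does not use it. The fit with a replicate block called 5921 genes higher, 6802 lower, 834 highest and 1345 lowest, with 826 of the highest shared. In the mean contrast the sign of 4 named genes near 0 or led by 1 library changed. Mki67 was at -0.058 with library totals only and 0 to 0.346 over left-out libraries, Tg at -0.933 with limma-voom and -2.319 to 1.097 over left-out libraries, Epcam at -0.058 to 0.032 and Krt18 at -0.029 to 0.05. Among pairwise differences given above that were not called, Col1a1 against RFP- MHCIIhi was at -0.02 without RFP- MHCIIlo replicate 3, Psmb11 against RFP+ MHCIIhi at 0.13 without RFP+ MHCIIhi replicate 4, and Pecam1 against RFP- MHCIIhi at -0.18 with library totals only. The cause was not tested. Genes near 1 CPM, such as Gcm2, Twist1 and Ins2, rest on few reads per library.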

Other observations

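The widest spread among the 4 RFP- MHCIIlo pools was that of Scgb3a1, a secretoglobin gene of airway epithelium, with a coefficient of variation of 171.6% and its highest level in replicate 1. Ighg2b, an immunoglobulin heavy chain gene, followed among these 395 genes at 99.9%.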
